A study of Homo sapiens with 13 samples.

Results

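The genes described here are 10 members of the Notch signalling pathway: the receptors NOTCH1, NOTCH2 and NOTCH3, the ligands JAG1, JAG2, DLL1 and DLL4, the glycosyltransferase gene LFNG, and the transcription factor genes HES1 and HES6. They were chosen by gene symbol, and all 10 were found among the 23886 symbols of both deposited comparison tables. RNA-seq of polyadenylated transcripts had been done on DLD-1 cells, a human cell line from a colorectal adenocarcinoma of Dukes' type C, harvested 72 h after small interfering RNA (siRNA) had been transfected at 50 nM. The groups were 4 samples with an siRNA against SOX9 (siSOX9; 3 from experiment 1 and 1 from experiment 2), set against 3 samples with a control siRNA (siCtrl; 2 from experiment 1 and 1 from experiment 2). In experiment 3, 4 samples with an siRNA against Y14 (siY14) were set against 2 siCtrl samples. The siY14 group held 2 samples each of the siRNAs numbered 9 and 10, which the authors pooled. SOX9 is a transcription factor of intestinal crypt cells, and Y14, encoded by RBM8A, belongs to the core of the exon junction complex. The study's title names splicing and transcription as roles of SOX9, and the values per gene concern transcript levels.

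The deposited tables hold mean normalised read counts per arm, that is, reads divided by a size factor per library and averaged. Reads per library were recovered from the digits of these means for 7 of the 10 Notch genes of the siSOX9 table and for 8 of the siY14 table. Recovered libraries carry no sample name, so letters order them within an arm by depth, a being the deepest, and a letter ties no library of one arm to a library of the other. Recovered reads of arms with a mean above 600 are less certain, and their SDs can be too small. Depth was estimated at 24.8 to 184 M counts per siSOX9-table library and 47.2 to 71.6 M per siY14-table library. The siSOX9 table's deepest libraries, siSOX9 a and siCtrl a, deviated together from their arm means (r = 0.90 over 6571 genes that share these libraries, a description). SOX9 itself had a mean of 9067 in siSOX9 cells and 24468 in siCtrl cells, with a DESeq adjusted p-value of 1.40e-04 in the authors' deposited table. RBM8A was listed at 0 in every arm, so the Y14 knockdown could not be checked. Of 10 colon epithelial markers, 9 had a mean of at least 10 in each table, EPCAM and KRT8 among them. The summed level of all 10 was 306211 in siSOX9 cells and 347698 in siCtrl cells, and 317948 in siY14 cells and 429035 in siCtrl cells of experiment 3. By the authors' deposited tables, 1 of these markers was higher and 1 lower with siSOX9, and 0 were higher and 4 lower with siY14. Summed immune markers lay between 75.7 and 86.2 and summed fibroblast and endothelial markers between 84.7 and 175 in all arms. CD68 made up most of the immune sums, with means of 70.2 to 82.5. The other immune markers had means of at most 5.30 in every arm, with CD3E at 0 in both arms of the siY14 table. Of the fibroblast and endothelial markers, COL1A1 was higher and PDGFRB lower with siSOX9 at the authors' threshold, and COL1A2 and DCN had means under 1 in every arm. Whether marker levels have a part in the results was not tested. Since no label says whether samples came from separate cultures, p-values measure the spread among the samples at hand, and that may be technical.

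Notch receptors span the membrane and are activated by Jagged and Delta-like ligands on a neighbouring cell. Ligand binding exposes the receptor to cleavage by ADAM proteases and then by gamma-secretase, which frees an intracellular domain that enters the nucleus and binds RBPJ to switch on targets such as HES1. Fringe enzymes, LFNG among them, add sugars to the receptor and change which ligands activate it. In the intestinal epithelium, NOTCH1 and NOTCH2 with the ligands DLL1 and DLL4 keep crypt progenitors from becoming secretory cells.

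Promoter sequence was available from RefSeq (GRCh38.p14) for 9 of the 10 genes. The 250 bases before a transcription start are shown for the 3 genes that fell with siSOX9, NOTCH1, DLL4 and LFNG, and for HES1, the textbook Notch target, whose arm means were nearly equal. All are printed 5′ to 3′ on the gene's own strand, and capitals mark the RBPJ core TGGGAA and the SOX core ACAAT on either strand. They lie at chr9:136546049-136546298 (minus strand) for NOTCH1, chr15:40929090-40929339 (plus) for DLL4, chr7:2517613-2517862 (plus) for the downstream LFNG start site, and chr3:194135898-194136147 (plus) for HES1. The deposited values were made on hg19, so these positions are not those of the authors' build.
NOTCH1: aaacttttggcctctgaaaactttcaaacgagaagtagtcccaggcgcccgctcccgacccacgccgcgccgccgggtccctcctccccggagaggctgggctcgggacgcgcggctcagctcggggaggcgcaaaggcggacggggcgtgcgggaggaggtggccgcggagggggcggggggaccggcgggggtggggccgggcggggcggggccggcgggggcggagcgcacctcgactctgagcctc
DLL4: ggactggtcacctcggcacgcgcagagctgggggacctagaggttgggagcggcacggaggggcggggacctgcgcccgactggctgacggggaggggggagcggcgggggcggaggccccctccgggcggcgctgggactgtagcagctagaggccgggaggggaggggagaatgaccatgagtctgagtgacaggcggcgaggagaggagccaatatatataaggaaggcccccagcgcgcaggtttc
LFNG: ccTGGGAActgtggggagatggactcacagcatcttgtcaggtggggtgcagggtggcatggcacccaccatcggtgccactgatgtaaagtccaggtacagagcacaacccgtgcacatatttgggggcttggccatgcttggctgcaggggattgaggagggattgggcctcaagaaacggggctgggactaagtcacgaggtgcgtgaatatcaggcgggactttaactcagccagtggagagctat
HES1: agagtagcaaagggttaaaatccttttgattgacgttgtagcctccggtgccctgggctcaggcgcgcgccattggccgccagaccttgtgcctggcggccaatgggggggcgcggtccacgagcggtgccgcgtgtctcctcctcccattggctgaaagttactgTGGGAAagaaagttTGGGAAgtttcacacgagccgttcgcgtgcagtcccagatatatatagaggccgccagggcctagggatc
The HES1 window held 2 RBPJ cores, at 84 to 79 and at 70 to 65 bases before the start, and the LFNG window held 1, at 248 to 243 bases before it. These were the 2 genes with an RBPJ core among the 9 searched, and 20.8% of 35116 promoters of the same length hold one. The SOX core was in 0 of the 9 genes' windows, against 24.6% of all promoters. The E box CACGTG, a site of basic helix-loop-helix factors present in 6.34% of promoters, was in none of the windows searched. The N box CACNAG, which HES proteins can bind and which 32.0% of promoters hold, had 3 matches in HES1 and 1 each in NOTCH3 and the LFNG window shown. The window of the upstream LFNG start site, not shown, held none of these motifs. None of the matches overlapped another. A match in these letters describes the window and says nothing of whether a factor binds there.

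Levels were compared between genes as normalised counts per kb of exon. In siCtrl cells of the siSOX9 table, JAG1 had the highest level at 1452 per kb, followed by HES1 at 1207, JAG2 at 698 and NOTCH2 at 377. LFNG (229 per kb), HES6 (222), DLL4 (88.6), NOTCH1 (77.7), NOTCH3 (39.1) and DLL1 (28.6) followed. JAG1 stood above 86.0% of the 17073 genes with a length and reads, and DLL1 above 36.2%. NOTCH2 thus had the highest level per kb of the 3 receptors and JAG1 that of the 4 ligands. Of the 9 pairs of neighbours in this order, 2 overlapped in their siCtrl libraries, LFNG with HES6 and DLL4 with NOTCH1. Recovery of reads was not tested at the means of JAG1, JAG2 and NOTCH2. The siCtrl cells of experiment 3, whose table was normalised separately, gave JAG1 at 2163, HES1 at 1192, NOTCH2 at 663 and JAG2 at 271 per kb. HES6 followed at 127, LFNG at 120, DLL4 at 41.0, NOTCH1 at 32.8, NOTCH3 at 22.8 and DLL1 at 17.3 per kb. There, 1 of the 9 neighbouring pairs overlapped, HES6 with LFNG, and recovery was not tested at the means of JAG1 and NOTCH2. JAG1 and HES1 had the highest levels and NOTCH3 and DLL1 the lowest in both siCtrl groups. NOTCH2 shares nearly identical sequence with its partial copies, the NOTCH2NL genes, and how the authors' counting split such reads is not given in the sources used here.

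With siSOX9, 3 of the 10 Notch genes fell, the receptor NOTCH1, the ligand DLL4 and the fringe gene LFNG, and 0 rose, at an adjusted p under 0.05 in the authors' deposited table. DLL4 fell to 0.39 and LFNG to 0.49 of their siCtrl means, while HES1 stood at 1.01 of its siCtrl mean. The table called 3.47% of 18747 genes in either direction, 2.27% as lower and 1.19% as higher. The median log2 fold change of the 10 genes was -0.32, against 0.01 over all 13649 genes whose mean reached 10, and 7 of the 10 were below 0. In bulk cells, fewer expressing cells and less RNA per cell cannot be told apart.

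Among the receptors, NOTCH1 had 390.9, 469, 490.3 and 437 normalised counts in siSOX9 libraries a to d, against 669.7, 838 and 662 in siCtrl libraries a to c. Every siSOX9 library lay below every siCtrl library. The arm means were 447 ± 43.3 in siSOX9 cells (SD, n = 4) and 723 ± 99.1 in siCtrl cells (SD, n = 3), a log2 fold change of -0.69 with a DESeq adjusted p-value of 0.00694 in the authors' deposited table. By limma voom on the recovered reads the change was -0.71 (SE 0.12, adjusted p = 0.00386). NOTCH3, a receptor best known from vascular smooth muscle, read 386, 472, 482 and 414 in siSOX9 libraries a to d, against 299.9, 385 and 330.05 in siCtrl libraries a to c. Its lowest siSOX9 library was just above its highest siCtrl library, and the log2 fold change of 0.37 had a DESeq adjusted p-value of 0.580 in the authors' deposited table. The limma voom estimate for NOTCH3 was 0.38 (SE 0.13, adjusted p = 0.0720), and some other limma voom fits called it. Limma fits with other size factors, other pseudocounts or no filter did not. It was at 0.34 (adjusted p = 0.0337) without the deepest library of both arms, at 0.36 (adjusted p = 5.07e-04) with a term for depth class, which sets those libraries apart, and at 0.48 (adjusted p = 0.00266) with GC content and length trends removed. In that order, these fits called 29.6%, 47.2% and 23.1% of all genes. Of the 7 fits that left out 1 library, 1 called NOTCH3. That fit, without siSOX9 library a, gave 0.49 (limma voom adjusted p = 0.0207) and called 22.4% of all genes. Without siCtrl library a the estimate was 0.25 (limma voom adjusted p = 0.328). NOTCH2, the most abundant receptor, had a mean of 4631 in siSOX9 cells and 6059.8 in siCtrl cells. Its log2 fold change of -0.39 had an unadjusted p of 0.0113 and 0.190 after adjustment by DESeq in the authors' deposited table. Of NOTCH2, the siCtrl libraries alone could be recovered, at 6603, 5999 and 5578, all above the siSOX9 mean. Recovery was not tested at means this high.

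Of the ligands, DLL4, a Delta-like ligand of crypt and endothelial cells, had 131, 137, 116 and 93.2 normalised counts in siSOX9 libraries a to d, against 300.2, 309 and 303 in siCtrl libraries a to c. The arms were far apart, with the highest siSOX9 library under every siCtrl library by more than the spread within either arm. Means were 119 ± 19.5 in siSOX9 cells (SD, n = 4) and 304 ± 4.57 in siCtrl cells (SD, n = 3). The log2 fold change of -1.35 had a DESeq adjusted p-value of 6.87e-06 in the authors' deposited table, and limma voom gave -1.29 (SE 0.13, adjusted p = 2.54e-04). DLL1, the related ligand and the least abundant of the 10, had 54.0, 59.3, 43.8 and 31.1 in siSOX9 libraries, against 94.3, 92.6 and 85.1 in siCtrl libraries. These did not overlap either. DESeq in the authors' deposited table put DLL1 at -0.95 on the log2 scale (adjusted p = 0.116), while limma voom gave -0.89 (SE 0.18, adjusted p = 0.0101), so its call depended on the test. Without siCtrl library a, the limma voom adjusted p of DLL1 was 0.0560.

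The Jagged ligands, with the higher levels per kb, did not pass the test. JAG1 had a mean of 9343 in siSOX9 cells and 8626 in siCtrl cells, a log2 fold change of 0.12 with a DESeq adjusted p-value of 1 in the authors' deposited table. JAG2 had 3424 in siSOX9 cells and 4074.5 in siCtrl cells, a log2 fold change of -0.25 and, after adjustment, p = 0.634 by DESeq in the authors' deposited table. Their siCtrl libraries a to c read 9263, 8551 and 8062 for JAG1 and 4441, 3853 and 3929 for JAG2, and neither gene's siSOX9 libraries could be recovered. The siSOX9 mean of JAG1 was above all 3 of its siCtrl libraries and that of JAG2 below all 3. Recovery of these siCtrl libraries was not tested at means this high.

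LFNG, the fringe glycosyltransferase, had 384, 389, 323 and 329 normalised counts in siSOX9 libraries a to d, against 773, 756 and 668 in siCtrl libraries a to c. All 4 siSOX9 libraries were below the lowest siCtrl library. Means were 356 ± 34.8 in siSOX9 cells (SD, n = 4) and 732 ± 56.2 in siCtrl cells (SD, n = 3). The log2 fold change was -1.04 with a DESeq adjusted p-value of 2.66e-05 in the authors' deposited table, and limma voom gave -1.03 (SE 0.10, adjusted p = 2.65e-04).

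The HES genes did not pass the test. HES1, a transcriptional repressor switched on by Notch, had 1622, 2097, 1986 and 1952 in siSOX9 libraries a to d, against 1705, 2039 and 1969.9 in siCtrl libraries a to c. The arms overlapped fully, and the lowest library of each was its deepest, a. The log2 fold change was 0.01 with a DESeq adjusted p-value of 1 in the authors' deposited table. The limma voom estimate was 0.00 with a 95% confidence interval of -0.25 to 0.26 (SE 0.11, adjusted p = 0.984). HES6, a HES family member that opposes HES1 in neural cells, had 406, 366, 371 and 327 in siSOX9 libraries, against 445, 406 and 328 in siCtrl libraries. These overlapped too, and the log2 fold change of -0.10 had a DESeq adjusted p-value of 1 in the authors' deposited table. Its limma voom interval was -0.39 to 0.17.

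**Figure D1:**
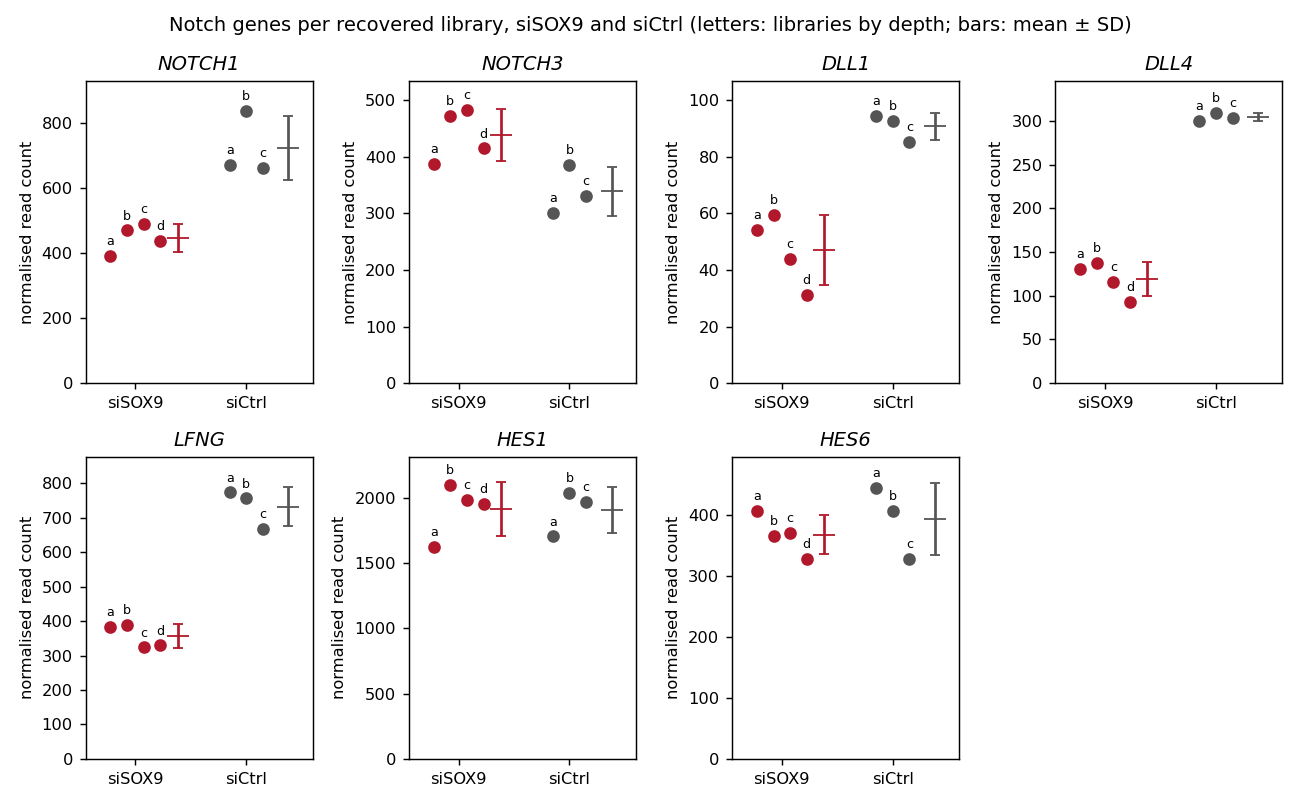
Normalised read counts (y axis, from 0) of the 7 Notch genes whose reads were recovered in the siSOX9 table, with 4 siSOX9 libraries left of 3 siCtrl libraries; letters order libraries by depth and bars show mean ± SD. NOTCH1, DLL1, DLL4 and LFNG lie lower in every siSOX9 library, with DLL4 at 93.2 to 137 in siSOX9 cells and 300.2 to 309 in siCtrl cells, while HES1 and HES6 overlap.

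Over the 7 recovered genes, the arms did not overlap for 5, NOTCH1, DLL1, DLL4 and LFNG as lower and NOTCH3 as higher, where 28.7% of 8731 genes did not overlap (15.5% lower, 13.2% higher). Limma voom called 4 of the 7, all lower, where it called 17.6% of all genes (10.3% lower, 7.36% higher). The 3 genes without recovered siSOX9 libraries, NOTCH2, JAG1 and JAG2, have high counts and could not be tested this way. NOTCH1, DLL4 and LFNG kept an adjusted p under 0.05 by limma voom in all 7 fits that left out 1 library. Their largest adjusted p in those fits was 0.0151 for NOTCH1 and 0.00183 for DLL4 as well as LFNG.

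Knockdown of Y14 gave another set of changes. The receptor NOTCH1 and the ligand JAG2 rose, at 1.51 and 1.43 times their siCtrl means, and 0 of the 10 genes fell at an adjusted p under 0.05 in the authors' deposited table. That table called 9.16% of 17706 genes, 3.81% as higher and 5.35% as lower. The median log2 fold change of the 10 was 0.21, against -0.00 over 13444 genes whose mean reached 10, and 6 of the 10 were above 0. Both calls rest on 2 siCtrl libraries. With either left out the log2 fold change by limma voom was 0.55 and 0.63 for NOTCH1 and 0.50 and 0.53 for JAG2. Those fits had 1 siCtrl library and kept almost no call of any gene, neither of these among them. Without any 1 siY14 library, limma voom called both genes, with adjusted p-values up to 0.0492 for NOTCH1 and 0.0345 for JAG2. Libraries a and c deviated together from their arm mean (r = 0.91), as did b and d (r = 0.90). Each such fit thus kept the partner of the library left out. The siY14 p-values treat the 4 siY14 libraries as independent.

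NOTCH1 had 428, 448, 484 and 484 normalised counts in siY14 libraries a to d, against 297 and 313 in siCtrl libraries a and b. All siY14 libraries were above both siCtrl libraries. Means were 461 ± 27.8 in siY14 cells (SD, n = 4) and 305 ± 11.9 in siCtrl cells (SD, n = 2), a log2 fold change of 0.60 with a DESeq adjusted p-value of 0.0419 in the authors' deposited table. Limma voom gave 0.59 (SE 0.10, adjusted p = 0.0192). JAG2, a Jagged ligand, had 2283, 2203, 2248 and 2306 in siY14 libraries, against 1567 and 1598 in siCtrl libraries. The recovered siY14 libraries lay close together and well above both siCtrl libraries. JAG2 had arm means above 600, where recovered reads are less certain, so this spread and its limma voom SE can be too small. Its log2 fold change was 0.51 with a DESeq adjusted p-value of 0.0468 in the authors' deposited table, and by limma voom it was 0.51 (SE 0.06, adjusted p = 0.0103). HES6 behaved alike in its libraries, with 301, 319, 322 and 357 in siY14 cells, against 220.5 and 229 in siCtrl cells. The groups did not overlap, but the call depended on the test, with a log2 fold change of 0.53 at a DESeq adjusted p-value of 0.0996 in the authors' deposited table and 0.52 by limma voom (SE 0.11, adjusted p = 0.0293). With 1 siY14 library left out, the log2 fold change of HES6 stayed between 0.48 and 0.56, and limma voom called it in 2 of 4 fits, without a and without c, with adjusted p-values up to 0.0594. Exons of NOTCH1, JAG2 and HES6 have a GC content of 62.9%, 64.0% and 68.4%. When trends with GC content and length were removed from each library, a setting chosen after seeing the data, the limma voom log2 fold change was 0.39 for NOTCH1 (adjusted p = 0.0481), 0.25 for JAG2 (adjusted p = 0.0947) and -0.07 for HES6 (adjusted p = 0.753). The part of base composition in these changes was not tested beyond that setting.

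The other receptors and ligands were not called. NOTCH2 had a mean of 12180 in siY14 cells and 10650.1 in siCtrl cells, a log2 fold change of 0.19 with a DESeq adjusted p-value of 0.591 in the authors' deposited table. JAG1 had 15048 in siY14 cells and 12850 in siCtrl cells, a log2 fold change of 0.23 with a DESeq adjusted p-value of 0.484 in the authors' deposited table. Recovered siCtrl libraries a and b of these abundant genes read 10717 and 10584 for NOTCH2 and 12706 and 12993 for JAG1, each below the siY14 mean. Their recovery was not tested at means this high. NOTCH3 had 192, 248, 226 and 276 in siY14 libraries, against 192 and 204 in siCtrl libraries, and the groups overlapped at their low end. Its log2 fold change was 0.25 (DESeq adjusted p = 0.607 in the authors' deposited table). DLL1 had 40.0, 63.5, 53.5 and 57.9 in siY14 libraries, against 60.05 and 49.7 in siCtrl libraries, which lay within the siY14 range. The log2 fold change of DLL1 was -0.03 (DESeq adjusted p = 1 in the authors' deposited table). The limma voom 95% interval of the log2 fold change was -0.17 to 0.64 for NOTCH3 and -0.63 to 0.50 for DLL1.

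LFNG and DLL4, which fell with siSOX9, split the siY14 libraries. LFNG had 452, 214, 469 and 200.4 normalised counts in siY14 libraries a to d, against 362 and 408 in siCtrl libraries a and b. Libraries a and c were above both siCtrl libraries and b and d below both. DLL4 showed the same split, with 143, 72.5, 174 and 82.3 in siY14 libraries, against 142 and 140.2 in siCtrl libraries. Libraries a and c also deviated together over 5891 genes other than these (r = 0.91), as did b and d (r = 0.90). The r of -0.95 between a and b largely follows from this, since deviations are taken from the arm mean. These correlations are over genes that share the libraries and are a description. The labels give 2 samples for each of the 2 Y14 siRNAs, but which pair of libraries belongs to which siRNA, or whether the pairs are the siRNAs at all, cannot be told from the deposited values. No test was made between the pairs. The mean of a and c was 460 for LFNG and that of b and d 207, which is 119.6% and 53.9% of the siCtrl mean, a ratio of 2.22 between the pairs. DLL4 had 159 in a and c and 77.4 in b and d, or 113% and 54.9% of siCtrl, a ratio of 2.05. Of the 5898 recovered genes whose mean reached 100, 1.76% differed between the pairs by as large a ratio as LFNG and 2.87% by as large a ratio as DLL4. The pattern of a and c above and b and d below both siCtrl libraries was found in 321 of these genes (5.44%), and its mirror image in 384 (6.51%).

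HES1 was lower in a and c than in b and d, with 1553, 1922, 1517 and 1908 in siY14 libraries a to d, against 1922 and 1840.2 in siCtrl libraries. The mean of a and c was 81.6% of the siCtrl mean and that of b and d 102%, a split in the opposite direction to LFNG and DLL4 and smaller, since 43.3% of the genes split by as much. NOTCH1 and JAG2 read nearly alike in both pairs, at 149.5% and 153% of siCtrl for NOTCH1 in a with c and in b with d, and 143% and 142% for JAG2. Reads of JAG2 and HES1 are less certain, since their arm means were above 600. Over all 4 siY14 libraries, DESeq in the authors' deposited table gave a log2 fold change of -0.21 for LFNG (adjusted p = 0.928), -0.26 for DLL4 (adjusted p = 0.833) and -0.13 for HES1 (adjusted p = 0.778). The limma voom intervals were wide for the genes that split, -1.25 to 0.65 for LFNG and -1.24 to 0.52 for DLL4, and -0.43 to 0.16 for HES1. The log2 fold change of LFNG by limma voom was 0.27 without libraries b and d and -0.87 without a and c, fits chosen after seeing the data and given as values without a test.

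**Figure D2:**
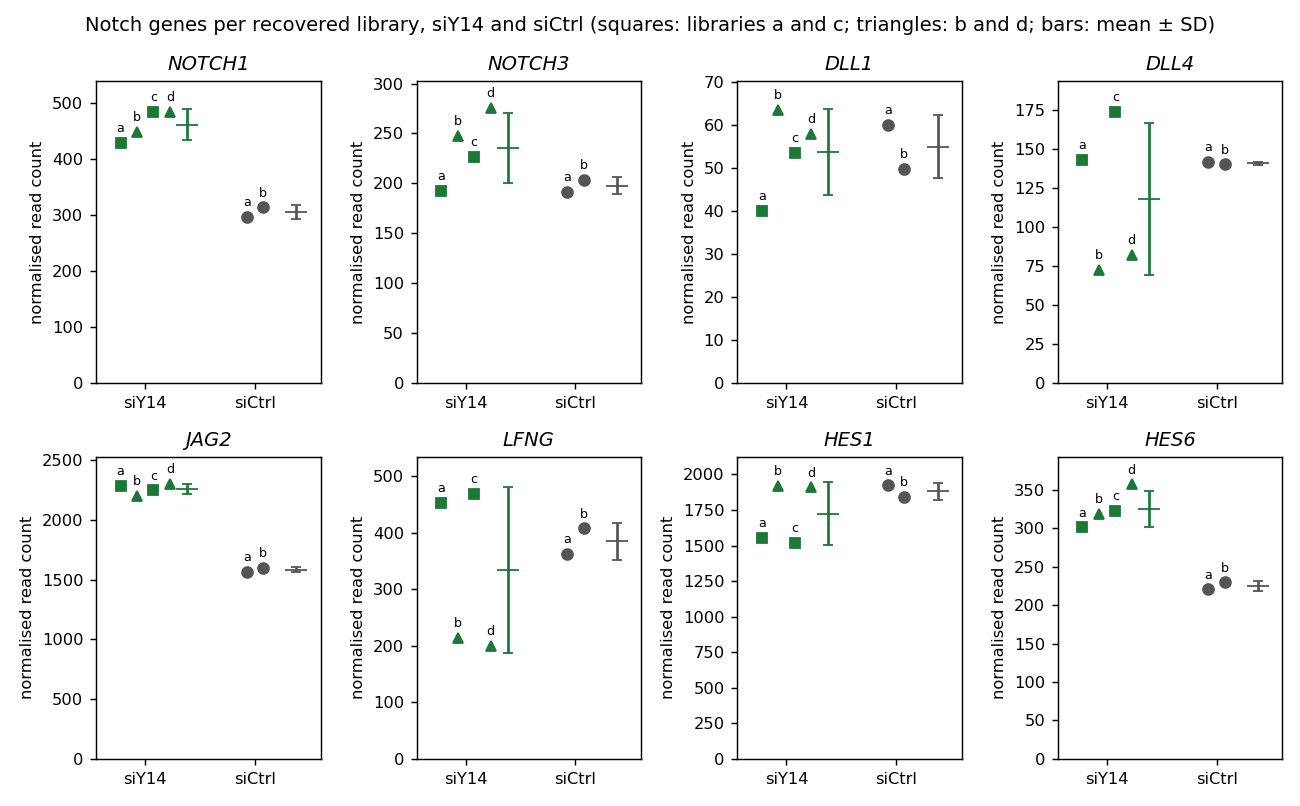
Normalised read counts (y axis, from 0) of the 8 Notch genes whose reads were recovered in the siY14 table, with 4 siY14 libraries (squares for a and c, triangles for b and d) left of 2 siCtrl libraries; bars show mean ± SD. NOTCH1, JAG2 and HES6 lie higher in all siY14 libraries, while LFNG and DLL4 split into 452 and 469 against 214 and 200.4, and 143 and 174 against 72.5 and 82.3.

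The arms did not overlap for 3 of the 8 recovered genes, NOTCH1, JAG2 and HES6, all higher. Of 8087 genes in the siY14 fit, 58.9% did not overlap (29.7% lower, 29.2% higher), so that count was below the background. Limma voom called the same 3 of 8, where it called 19.8% of all genes (9.11% higher, 10.7% lower).

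Against the siCtrl mean of its own table, NOTCH1 moved in opposite directions, to 0.62 of it with siSOX9 and 1.51 times with siY14. Its mean was 447 in siSOX9 cells and 461 in siY14 cells, while the siCtrl means were 723 and 305. DLL4 had 119 and 118 in knockdown cells and 304 and 141 in siCtrl cells. LFNG had 356 and 334, against 732 and 385. The siCtrl means of HES1 were 1904 and 1881. The tables were normalised separately, and whether siCtrl levels have a part in the differences was not tested. The tables have separate siCtrl samples, so the difference of the effects, siSOX9 over siCtrl minus siY14 over siCtrl, could be tested in a joint limma voom model for 7 of the 10 genes. The difference for NOTCH1 was -1.30 on the log2 scale (SE 0.18, limma voom adjusted p = 5.78e-04), and it passed the threshold in all 13 fits that left out 1 library. HES6 differed by -0.63 (SE 0.19, limma voom adjusted p = 0.0325), with a log2 fold change near 0 in siSOX9 cells and above 0 in siY14 cells. That call was kept in 6 of the 13 fits, with adjusted p-values up to 0.169. With GC content and length trends removed, the difference was -0.04 for HES6 (limma voom adjusted p = 0.938) and -0.99 for NOTCH1 (limma voom adjusted p = 3.43e-04). The joint model called 2 of the 7 Notch genes, where it called 18.5% of 7435 genes. For DLL4 the difference was -0.94 (95% interval -1.71 to -0.17, limma voom adjusted p = 0.0816), for DLL1 -0.83 (-1.51 to -0.16, adjusted p = 0.0800) and for LFNG -0.73 (-1.53 to 0.06, adjusted p = 0.181). The falls of DLL4 and LFNG with siSOX9 are therefore not shown to be particular to that knockdown. HES1 differed by 0.14 (-0.24 to 0.52, limma voom adjusted p = 0.622) and NOTCH3 by 0.15 (-0.33 to 0.63, limma voom adjusted p = 0.687). Each knockdown belongs to its own experiments, so experiment and siRNA cannot be told apart in these differences.

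**Figure D3:**
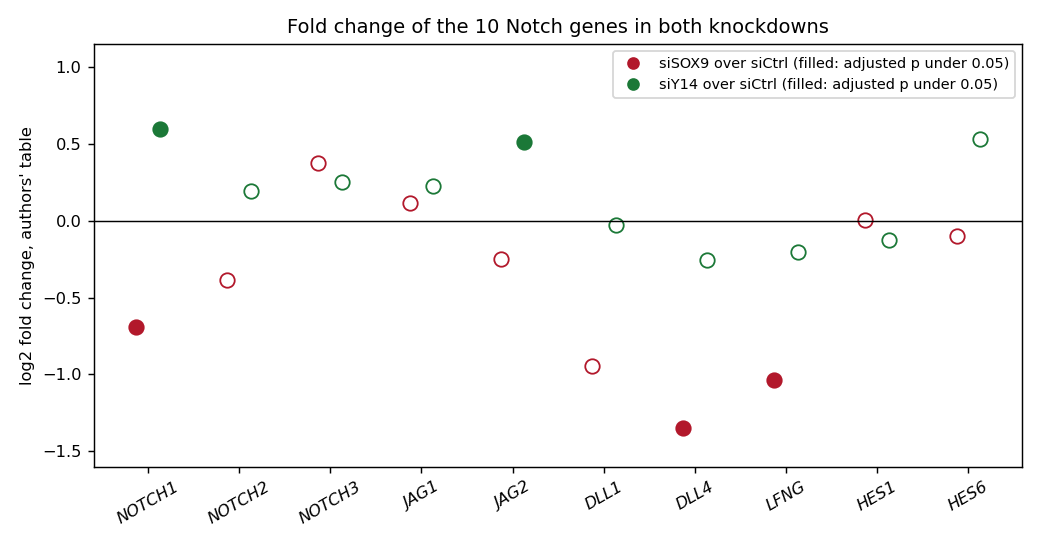
Log2 fold change of each of the 10 Notch genes in the authors' deposited tables (y axis), with siSOX9 over siCtrl in red and siY14 over siCtrl in green; filled points passed an adjusted p of 0.05. NOTCH1 is at -0.69 with siSOX9 and 0.60 with siY14, and DLL4 and LFNG are at -1.35 and -1.04 with siSOX9.

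Another 74 genes of the pathway were followed, covering fringe and O-glycosylation enzymes, receptor proteases, ligand endocytosis, receptor turnover, the nuclear complex with its co-repressors, and targets. With siSOX9, 72 of them had reads, and the authors' deposited table called 1 of them higher and 0 lower, or 1.39% of the list, where it called 3.47% of all genes. The gene that rose was TLE4, a Groucho-type co-repressor that HES proteins recruit, with a mean of 3191 in siSOX9 cells and 1878 in siCtrl cells (log2 fold change 0.76, DESeq adjusted p = 0.00295 in the authors' deposited table). Limma voom, which could test 28 of the list, called KAT2B higher (adjusted p = 0.00696) and HES2 lower (adjusted p = 0.0481), where it called 17.6% of all genes. By DESeq in the authors' deposited table, their adjusted p-values were 0.239 and 0.451. KAT2B encodes an acetyltransferase co-activator and HES2 a HES repressor. The list's median log2 fold change was -0.02, near that of all genes. RBPJ, the DNA-binding partner of Notch, had 5109 in siSOX9 cells and 5115 in siCtrl cells, and NRARP, a feedback target of Notch, had 1471 in siSOX9 cells and 1498 in siCtrl cells. Neither gene's DESeq adjusted p in the authors' deposited table was under 1.

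With siY14, 71 of the 74 had reads, and the authors' deposited table called 3 of them higher and 4 lower, or 9.86% of the list, close to the 9.16% of all genes. RFNG, another fringe gene, had 1195 in siY14 cells and 809 in siCtrl cells (log2 fold change 0.56, DESeq adjusted p = 0.0327 in the authors' deposited table). DTX2, a Deltex ubiquitin ligase of receptor trafficking, had 1347 in siY14 cells and 855 in siCtrl cells (0.66, DESeq adjusted p = 0.00985 in the authors' deposited table). HES7, an oscillating HES repressor of the embryonic segmentation clock, had 289 in siY14 cells and 170.3 in siCtrl cells (0.76, DESeq adjusted p = 0.0131 in the authors' deposited table). The genes that fell have roles in cleavage, turnover and the nuclear complex. APH1B, a gamma-secretase subunit, had 352 in siY14 cells and 524 in siCtrl cells (-0.57, DESeq adjusted p = 0.0333 in the authors' deposited table). NEDD4, a ubiquitin ligase, had 2337 in siY14 cells and 3503 in siCtrl cells (-0.58, DESeq adjusted p = 0.0126 in the authors' deposited table). The Mastermind co-activators MAML2 and MAML3 had 648 and 61.3 in siY14 cells, against 930.1 and 123 in siCtrl cells (-0.52 and -1.01, DESeq adjusted p = 0.0433 and 0.0176 in the authors' deposited table). By limma voom, MAML3 had an adjusted p of 0.0581. The list's median log2 fold change was 0.01. DTX1 and DLK1 were listed at 0 in both tables and HES5 in the siY14 table.

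**Figure D4:**
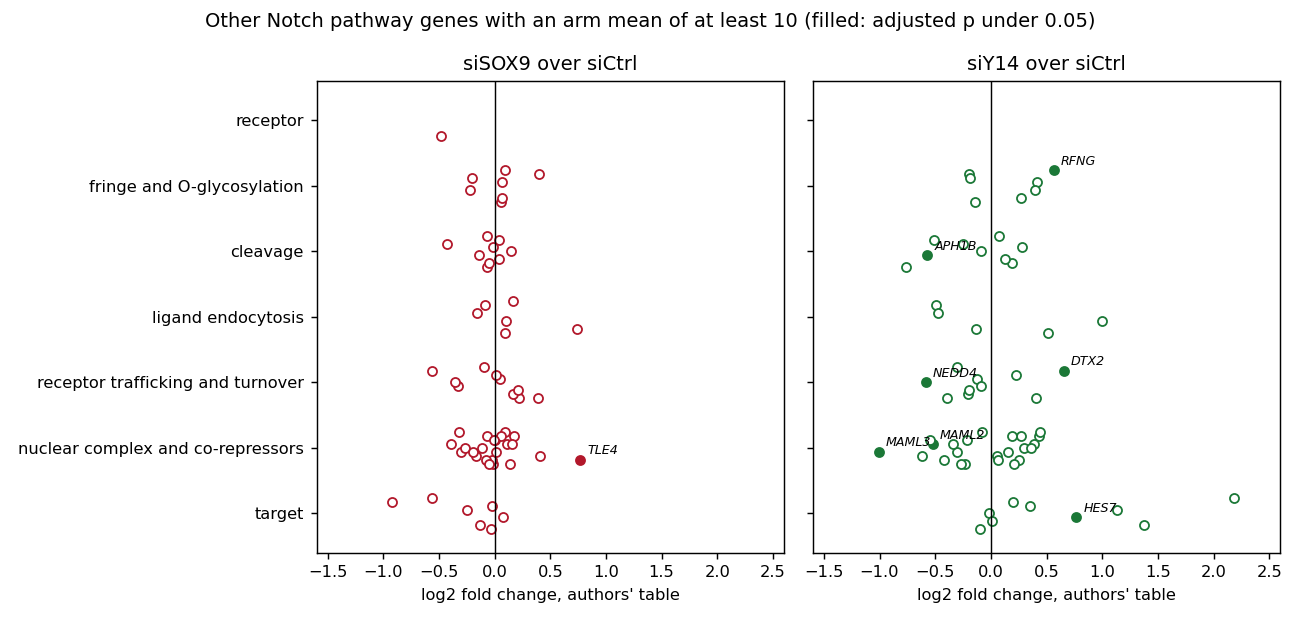
Log2 fold changes in the authors' deposited tables (x axis) of the other Notch pathway genes with an arm mean of at least 10, by role (y axis; the vertical spread of points has no meaning), siSOX9 over siCtrl on the left and siY14 over siCtrl on the right; filled points passed an adjusted p of 0.05. TLE4 at 0.76 is the one filled point with siSOX9, and 7 are filled with siY14.

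The genes most like LFNG and DLL4 were taken as the 3 nearest each in the pair of log2 fold changes, among 11069 genes with a mean of at least 100 in both tables. Nearest to LFNG were STK17A (-1.03 with siSOX9 and -0.23 with siY14), FAM129A (-1.002 and -0.17) and NUP210 (-1.08 and -0.16), all in the authors' deposited tables. Nearest to DLL4 were SOX9 itself (-1.43 with siSOX9 and -0.20 with siY14), RDH11 (-1.39 and -0.15) and KCNE3 (-1.23 and -0.27) in the same deposited tables. The distances were 0.02 to 0.06 for LFNG and 0.10 to 0.12 for DLL4. They rest on 2 comparisons and describe likeness of fold change alone.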

How the data were processed

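Libraries were stranded and made from polyadenylated RNA, per the labels' protocols. TopHat2, Bowtie, HISAT2, SAMtools, HTSeq and DESeq with build hg19 are named in the submitters' processing notes; versions, order and strand setting are not given in the sources used here. Per the file headers, each deposited table holds a mean per arm (a signal, reads divided by a size factor), the ratio of the means (fold change) also as log2, and p-values raw and adjusted (Benjamini-Hochberg, as recomputed). Arms were assigned from each arm's share of the overall mean, which matched the labels' group sizes. There were 0 unused columns of per-sample values. Calls used the authors' adjusted p at 0.05.

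The Notch genes, pathway genes, markers and tests were chosen with earlier results of these data known. Named were all 10 Notch genes, the pathway genes past the threshold, the nearest genes and SOX9; RBPJ, NRARP, KAT2B, HES2 and markers were named after their values were seen. Of the pathway genes, 2 were found by an older symbol.

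Arm means carry 15 digits, and each is a sum of whole reads weighted per library. What 1 read was worth per library was read off low means that at least 50 genes share. Reads were accepted for a gene when their weighted sum equalled the deposited mean and no other set was within 1000 times as likely, for means up to 2500 in arms of 4 libraries and 20000 in smaller arms. Reads were recovered in both arms for 73.7% of 18747 genes (siSOX9 table) and 69.3% of 17706 (siY14 table). Tested on simulated data, 2 of 1179 and 2 of 1156 accepted sets were wrong. Of means up to 600 shifted off any whole-read sum, 0 of 293 and 0 of 340 were accepted. Over all shifted means, 71 and 63 of 600 were, and every one of these had a mean above 600. Simulated overall means were drawn from 10 to 2500. The siCtrl arms of NOTCH2 and JAG1, and of JAG2 in the siSOX9 table, lay above that range, so their recovery was not tested. Sets close to equal normalised counts were favoured, so SDs at high means can be too small.

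Genes reaching a mean of 10 were fitted on recovered reads with limma 3.58.1 (voom, R 4.3.3), library sizes from the authors' size factors, Benjamini-Hochberg over all genes fitted, and a joint model for the difference of the knockdowns. Tested on simulated data, the siSOX9 fit of 8731 genes found 94 of 104 genes with a 2-fold and 96 of 96 with a 4-fold change, and made 10 false calls among 200. The siY14 fit of 8087 genes found 92 of 105 and 95 of 95, with 12 false among 199. Simulated libraries of both fits were independent. The siY14 pairs and the deepest libraries of the siSOX9 table are not, so these rates may not hold for the data. Levels per kb used exon lengths from GENCODE v29. Alternatives covered size factors, filters, pseudocounts, the threshold, GC content and length, and left-out libraries.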

Additional observations from a re-analysis of the deposited data

Results flagged for a closer look

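The effect of siSOX9 on NOTCH1 differed from that of siY14 by -1.30 on the log2 scale in the joint limma voom model (adjusted p = 5.78e-04). That model called 18.5% of 7435 genes. NOTCH1 was lower in 4 of 4 siSOX9 libraries and higher in 4 of 4 siY14 libraries than every siCtrl library of its table. Of all genes fitted, 28.7% did not overlap between the arms with siSOX9 and 58.9% with siY14. Its mean was 447 in siSOX9 cells and 461 in siY14 cells, while the siCtrl means of the separately normalised tables were 723 and 305. The effects on HES6 differed by -0.63 (limma voom adjusted p = 0.0325). HES6 libraries overlapped between siSOX9 and siCtrl and did not overlap between siY14 and siCtrl. The HES6 difference missed the threshold without siCtrl a, siCtrl b, siSOX9 b or siSOX9 d of the siSOX9 table, or without siY14 d. Its limma voom adjusted p was 0.0505 to 0.0914 in those fits and its estimate -0.63 to -0.50. Without siCtrl a or b of the siY14 table, which left 1 siCtrl library, the estimate was -0.60 and -0.66. The call was not kept there either. With GC content and length trends removed, a setting chosen after seeing the data, the HES6 difference was -0.04 (limma voom adjusted p = 0.938). The NOTCH1 difference was -0.99 (limma voom adjusted p = 3.43e-04) with those trends removed.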

How the results depend on the processing

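With siSOX9, 3 Notch genes were called in the authors' deposited table. Limma voom called 5 with the GC content and length trend removed (23.1% of all genes), 5 without the deepest library of both arms (29.6%) and 5 with depth class as a term (47.2%). With 1 library left out it called 3 to 5 (11.4% to 22.4% of all genes), and 5 without siSOX9 library a (22.4%). With siY14, 2 were called in the authors' deposited table and 0 at a threshold of 0.01. Limma voom called 1 with the GC content and length trend removed (15.9% of all genes), 6 without siY14 libraries a and c (73.4%) and 5 without b and d (56.8%). With 1 siY14 library left out it called 2 to 3 (5.85% to 24.8% of all genes). Fits without a siCtrl library left 1 library in that arm, which then has no spread of its own, so their counts are not given. The calls of NOTCH1 and JAG2 were not kept in them. The difference between the knockdowns had 2 calls (18.5% of all genes) and 1 with the GC content and length trend removed (17.8%). With 1 library left out and both siCtrl libraries of experiment 3 kept, it had 1 to 3. Those fits called 13.8% to 22.3% of all genes.

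Directions reversed as follows; the cause was not tested. With siY14, LFNG was 0.27 and DLL4 0.14 without libraries b and d, DLL1 was 0.14 and HES1 0.022 without a and c, and HES6 was -0.069 with the GC content and length trend removed. HES1 with siSOX9 was -0.051 with that trend removed and -0.023 with depth class as a term. Without siY14 libraries a and c the difference was -0.020 for HES1 and -0.015 for NOTCH3. With 1 library left out, HES1 with siSOX9 ran from -0.090 to 0.10, HES6 with siSOX9 from -0.20 to 0.022 and DLL1 with siY14 from -0.19 to 0.083. Of single-gene results with 1 library left out, 159 kept direction and side of the threshold, 7 reversed, 11 came to pass it and 11 to miss it. Under other settings 162 kept both, 9 reversed, 27 came to pass it and 5 to miss it. The counts with 1 library left out include the siY14 fits that left 1 siCtrl library, an arm with no spread of its own.

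The settings for GC content, depth class, pairs of siY14 libraries and no filter were chosen after seeing the data. No paired analysis was possible because recovered libraries carry neither a sample name nor a replicate number. The depth class term sets the deepest libraries apart and pairs no replicates. Each arm of the siSOX9 table held 1 sample from experiment 2, but no limma fit had a term for experiment. Whether the deepest libraries, siSOX9 a and siCtrl a, are those samples cannot be told without sample names. The part of experiment in the siSOX9 SDs and p-values was not tested.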
